A study of Mus musculus with 13 samples.

Results

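Formative and primed pluripotency are the states that mouse embryonic stem cells (mESCs) pass through between the naive state and commitment to a germ layer. The genes described here are 7 markers of those states: Fgf5, Otx2, Pou3f1, Sall2, Zic2, Lef1 and Etv5. They were picked by gene symbol from the 25965 genes of the expression table. The rule used no threshold on the values, but the symbols were proposed with earlier results of these data known. All 7 had a row, and all 7 were among the 13406 genes that were tested, those whose log2 CPM (log2 of reads per gene scaled to a common number of mapped reads) averaged 0 or more over the 12 libraries of days 4, 5, 6 and 7.

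Naive mESCs kept in 2i, which inhibits MEK and GSK3, resemble the early epiblast. When the inhibitors are withdrawn the cells switch off naive factors, switch on formative genes and then become primed or differentiate. Fgf5 encodes a secreted fibroblast growth factor of the post-implantation epiblast. Otx2 and Pou3f1 (Oct6) encode homeodomain and POU domain transcription factors of the same tissue, Sall2 and Zic2 encode zinc finger transcription factors, Lef1 encodes an HMG box factor through which Wnt signals act on genes, and Etv5 encodes an ETS factor that responds to FGF and ERK signals.

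The members are protein-coding genes on 5 chromosomes, at these mm10 positions in the table: Fgf5 at chr5:98254184-98277030 (plus strand), Otx2 at chr14:48657679-48667644 (minus), Pou3f1 at chr4:124657646-124660655 (plus), Sall2 at chr14:52311172-52328762 (minus), Zic2 at chr14:122475435-122479852 (plus), Lef1 at chr3:131110471-131224356 (plus) and Etv5 at chr16:22381309-22439719 (minus). Otx2, Sall2 and Zic2 share chromosome 14, and all values count reads over whole genes and both parental alleles.

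The cells were female F1 mESCs from FVB/NJ dams and CAST/EiJ sires, expanded in 2i and weaned into DME HiHi, a medium with serum. The Day0 group was 1 library of undifferentiated cells. From days 4, 5, 6 and 7 of differentiation there was 1 library a day of each of 3 groups, all transduced with a short hairpin RNA on day 2 and selected with puromycin from day 3: the nonsilencing control (Nons) and the hairpins Smarcc1.6 and Smarcc1.7, which target Smarcc1, whose protein is part of the core of the BAF chromatin remodelling complex. Each group and day was a single library, so the 4 days served as replicates of a group and the 3 groups as replicates of a day. Separate cultures or lines are not named in the labels, so the p-values measure the spread between these libraries. All 12 hairpin libraries had gone through transduction and selection, whereas the Day0 library had not, and their effect cannot be told apart from that of differentiation.

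Depth ran from 13993440 to 63548092 mapped reads. In Day0 and the 3 libraries of day 6, 85.3% to 86.5% of mapped reads fell in genes, against 91.6% to 92.6% in the other 9, so values of Day0 and day 6 come from libraries that differ from the rest in this way. Since the samples are bulk cultures, fewer cells that express a gene and less RNA per cell cannot be told apart. The knockdown held in every pair of same-day libraries. Smarcc1 stood at a log2 CPM of 9.10, 8.87, 8.28 and 7.89 in Nons on days 4 to 7, at 7.42, 7.40, 7.28 and 7.28 with Smarcc1.6 and at 7.96, 7.78, 7.17 and 7.51 with Smarcc1.7. The difference from Nons was −1.06 ± 0.14 (log2, SE; adjusted p = 0.00232, limma), and it was smaller on day 7, at −0.50 as the mean of both hairpins, than on day 4, at −1.41.

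The guide strands of the hairpins are given because every knockdown comparison rests on them, with the seed, bases 2 to 8, in capitals. They were read as the 22 bases of the guide strand in each designed oligonucleotide.
Nons: cTTACTCTcgcccaagcgagag
Smarcc1.6: tGTAACTGcttcttcatcctgc
Smarcc1.7: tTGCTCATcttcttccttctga
The reverse complement of the Smarcc1.6 guide lay at chr9:110177472-110177493 (mm10, plus strand), in the coding part of exon 13 of 28 of Smarcc1, and that of the Smarcc1.7 guide at chr9:110173911-110173932, in the coding part of exon 11. Each was found in 5 of the 9 Smarcc1 transcripts of GENCODE M21. The Nons guide matched 0 of them. The knockdown guides differ in seed and in target site, so they stand as separate reagents against the same gene.

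The start regions of 3 members are given because Fgf5 was the member furthest from its Day0 level, Otx2 the member that differed between knockdown and Nons, and Sall2 the member whose difference changed most with day. Each runs from 250 bases before the start site to 50 bases after it, from RefSeq on GRCm38.p6 (the mm10 assembly), on the strand of the gene and with a TATAAA match in capitals.
Fgf5, chr5:98253934-98254233, plus strand: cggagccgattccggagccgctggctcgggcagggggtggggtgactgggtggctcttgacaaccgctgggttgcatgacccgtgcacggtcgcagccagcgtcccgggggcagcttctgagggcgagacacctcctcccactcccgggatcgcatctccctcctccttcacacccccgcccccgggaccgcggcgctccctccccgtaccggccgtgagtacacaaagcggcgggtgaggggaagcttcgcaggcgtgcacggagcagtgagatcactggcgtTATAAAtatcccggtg
Otx2, chr14:48667595-48667894, minus strand: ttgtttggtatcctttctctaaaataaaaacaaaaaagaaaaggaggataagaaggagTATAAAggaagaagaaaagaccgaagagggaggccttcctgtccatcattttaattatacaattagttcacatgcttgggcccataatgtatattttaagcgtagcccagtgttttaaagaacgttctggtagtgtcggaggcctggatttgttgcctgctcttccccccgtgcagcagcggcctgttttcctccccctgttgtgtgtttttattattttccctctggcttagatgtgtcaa
Sall2, chr14:52328621-52328920, minus strand: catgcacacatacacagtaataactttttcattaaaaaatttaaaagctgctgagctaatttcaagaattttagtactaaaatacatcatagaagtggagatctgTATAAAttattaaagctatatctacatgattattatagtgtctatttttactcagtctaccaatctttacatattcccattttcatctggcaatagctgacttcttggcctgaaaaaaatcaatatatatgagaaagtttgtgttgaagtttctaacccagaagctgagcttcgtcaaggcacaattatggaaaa
The windows differ in base composition. That of Fgf5 had 68.3% G and C and 29 CpG, that of Otx2 41.7% and 6, and that of Sall2 30.3% and 1, while the median of all 32851 promoter windows was 52.7% and 7. Start regions were found for 5 of the 7 members, and those of Lef1 (67.3% G and C, 21 CpG) and Etv5 (74.0%, 37 CpG) were on the rich side with Fgf5. Otx2 had 4 listed starts, Lef1 4, Etv5 2 and Sall2 2, and the start nearest to that of the expression table was taken, which lay 148 bases from it for Lef1, 149 for Etv5 and 92 for Sall2. Both strands were searched for TATAAA, the POU octamer ATGCAAAT, the OTX site TAATCC, the TCF/LEF site CTTTGAT, the ETS site CCGGAAG and the ZIC site CCTGCTG, none of which overlapped another match. The only matches were TATAAA in Fgf5, Otx2 and Sall2, 34 bases after, 192 before and 145 before the start, and the ZIC site in Lef1, on the opposite strand 93 bases before the start. TATAAA was present in 13.6% of all windows and the ZIC site in 10.5%. The other motifs, absent from these 5 windows, were in 1.74% (octamer), 7.06% (OTX), 3.73% (TCF/LEF) and 8.86% (ETS) of all windows.

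The first question was how far the genes rose from Day0. On day 4, 5 of the 7 members (Fgf5, Otx2, Pou3f1, Lef1 and Sall2) were at least 1 log2 unit above Day0 in all 3 libraries, as were 13.6% of the tested genes. Zic2 was at least 1 unit below Day0 in all 3, as were 8.59% of tested genes, and Etv5 was above Day0 by less than that in 2 of the 3. On day 6, 4 members (Fgf5, Otx2, Pou3f1 and Sall2) were above by that margin, against 17.3% of tested genes, and 0 were below, against 8.03%. The median tested gene lay between 0.03 and 0.16 log2 units above Day0 in the 12 libraries. With 1 library at Day0 there is no test of these differences. Zic2 and Etv5 were already expressed in the undifferentiated library, at a log2 CPM of 6.36 and 8.21. Zic2 was below that level on days 4 and 5 in all 3 groups, and Etv5 was above it on day 4 by 0.66 in Nons, 1.03 with Smarcc1.6 and 0.89 with Smarcc1.7.

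**Figure D1:**
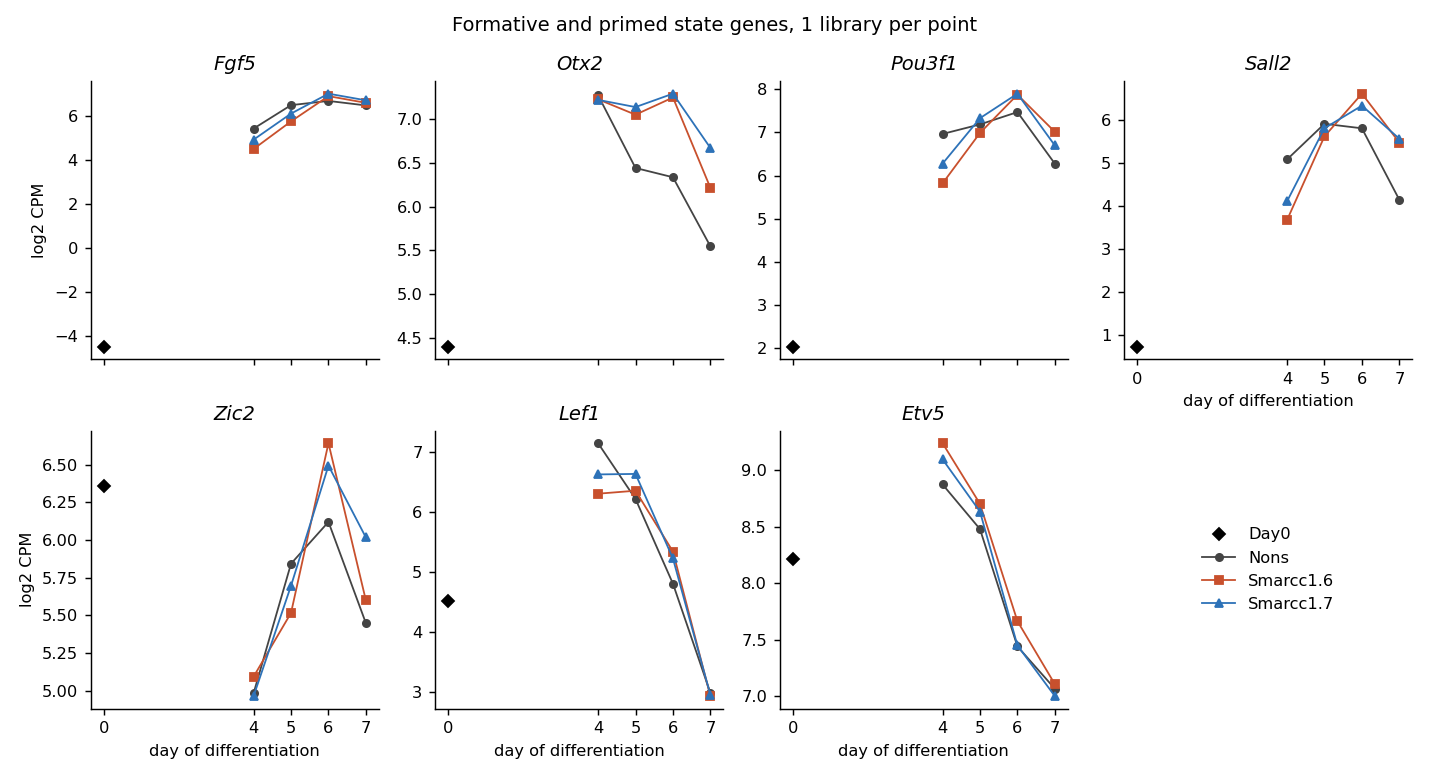
Log2 CPM of each gene (vertical axis, own scale per panel) against day of differentiation, with 1 library per point, black diamond for Day0 and lines for Nons, Smarcc1.6 and Smarcc1.7. Fgf5, Pou3f1 and Sall2 stand far above Day0 and are highest on day 5 or 6, Etv5 falls from each day to the next and Lef1 falls from day 5 to day 7 (from day 4 in Nons), and Otx2 falls earlier in Nons than with either hairpin.

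Fgf5 was all but silent at Day0, with 1 read among 22287023 (log2 CPM −4.48). Its log2 CPM was 5.42, 6.48, 6.67 and 6.47 in Nons on days 4 to 7, 4.49, 5.74, 6.89 and 6.59 with Smarcc1.6, and 4.91, 6.10, 7.00 and 6.70 with Smarcc1.7. Every later library was far above Day0, every group was lowest on day 4 and highest on day 6, and each fell slightly to day 7. The lowest of the ratios to Day0 was 501 (Smarcc1.6, day 4; 95% counting interval 89.8 to 19808.7) and the highest 2855 (Smarcc1.7, day 6; 512 to 112795). These exact binomial intervals cover the counting error of both libraries, which the single Day0 read dominates, and nothing else.

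Pou3f1 stood at a log2 CPM of 2.03 at Day0 (91 reads). It was at 6.97, 7.19, 7.47 and 6.28 in Nons, at 5.82, 6.99, 7.88 and 7.01 with Smarcc1.6, and at 6.28, 7.33, 7.90 and 6.70 with Smarcc1.7. As with Fgf5, day 6 was the highest day in all 3 groups. From its highest value to day 7 it dropped by 1.20 in Nons, 0.86 with Smarcc1.6 and 1.20 with Smarcc1.7.

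Sall2 had 37 reads at Day0, a log2 CPM of 0.73. In Nons it was at 5.08, 5.91, 5.81 and 4.15, with Smarcc1.6 at 3.67, 5.62, 6.61 and 5.48, and with Smarcc1.7 at 4.11, 5.81, 6.33 and 5.57. The Nons course ended below where it began, with day 7 lowest, and both knockdown courses began at their lowest on day 4. Over days 4 to 7 it changed by −0.94 in Nons, by 1.80 with Smarcc1.6 and by 1.46 with Smarcc1.7.

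Otx2 was already expressed at Day0, at a log2 CPM of 4.40. It read 7.27, 6.44, 6.34 and 5.55 in Nons, 7.23, 7.05, 7.25 and 6.21 with Smarcc1.6, and 7.22, 7.14, 7.29 and 6.67 with Smarcc1.7. On day 4 it differed from Nons by −0.05 with each hairpin. Nons then fell by day 5, while with both hairpins Otx2 stayed above 7 until day 6.

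Zic2 was at a log2 CPM of 6.36 at Day0. It was at 4.99, 5.84, 6.12 and 5.45 in Nons, at 5.09, 5.52, 6.64 and 5.60 with Smarcc1.6 and at 4.97, 5.70, 6.49 and 6.02 with Smarcc1.7. All 3 groups thus dipped on day 4 and were highest on day 6, and only the knockdown libraries of day 6 reached the Day0 level.

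Lef1 was at 4.52 at Day0, at 7.15, 6.22, 4.80 and 2.98 in Nons, at 6.31, 6.35, 5.34 and 2.93 with Smarcc1.6 and at 6.63, 6.64, 5.22 and 2.95 with Smarcc1.7. It is the member with the widest range over days 4 to 7, and its day 7 values lay below Day0 in all 3 groups. Etv5 was at 8.21 at Day0, at 8.87, 8.48, 7.44 and 7.07 in Nons, at 9.24, 8.70, 7.67 and 7.11 with Smarcc1.6 and at 9.10, 8.63, 7.45 and 7.00 with Smarcc1.7. It fell from each day to the next in every group, and days 6 and 7 lay below Day0.

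Levels of different genes were set against each other only per kilobase of exon. In Nons the mean log2 CPM per kilobase over 4 days was 5.93 ± 0.85 (SD, n = 4) for Etv5, 5.03 ± 0.51 for Pou3f1, 4.94 ± 0.57 for Fgf5, 4.32 ± 0.71 for Otx2, 4.07 ± 0.49 for Zic2, 2.80 ± 0.82 for Sall2 and 2.15 ± 1.82 for Lef1. The SD is over days and holds the course of each gene. Neighbours in this order lay within an SD of each other, with exceptions. Etv5 and Pou3f1, and Zic2 and Sall2, were further apart than either SD. In GENCODE M21, the source of the exon lengths, Pou3f1 starts at 124656807 and Otx2 ends at 48673819, outside the positions given above. The 3849 exon bases taken for Pou3f1 exceed the span given above, so its level per kilobase can be too low. Whether Etv5 and Pou3f1 stay that far apart with the counted lengths was not tested. The place of Otx2 in the order depends on its length too. With Smarcc1.6 and Smarcc1.7 Otx2 passed Fgf5, at 4.86 ± 0.49 against 4.61 ± 1.07 and at 5.00 ± 0.28 against 4.86 ± 0.92, differences also within the spread. At Day0 the order was Etv5 (6.17), Zic2 (4.83), Otx2 (2.32), Lef1 (1.39), Pou3f1 (0.09), Sall2 (−1.71) and Fgf5 (−5.80).

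The course after day 4 was tested by limma with group as a covariate, and 4 of the 7 members had a slope over days 4 to 7. Fgf5 rose by 0.57 ± 0.12 log2 units per day (SE, adjusted p = 0.00184), 1 gene among the 34.9% of tested genes that rose. Otx2 fell by 0.32 per day (adjusted p = 0.00479), Lef1 fell by 1.25 per day (adjusted p = 3.89e-05) and Etv5 fell by 0.71 per day (adjusted p = 1.66e-06), among the 25.6% that fell. The slopes of Zic2, at 0.28 ± 0.12, of Sall2, at 0.28 ± 0.23, and of Pou3f1, at 0.15 ± 0.16, did not pass. A straight line leaves out a peak on day 6. Without day 7, Pou3f1, Zic2 and Sall2 passed with 0.70, 0.70 and 0.98 per day, and Otx2, at −0.14, no longer did. Without Nons of day 7 alone, Sall2 (0.53, adjusted p = 0.0390) and Zic2 (0.37, adjusted p = 0.0245) passed. Zic2 also passed without Smarcc1.6 of day 7 (0.36, adjusted p = 0.0317) and with group left out of the model (0.28, adjusted p = 0.0445). Without day 4 Fgf5 no longer passed (0.24 per day, adjusted p = 0.192), and the slopes of Pou3f1 and Sall2 turned to −0.25 and −0.36.

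Step by step, 4 members rose from day 4 to day 5 and 1 fell. Sall2 rose by 1.49 ± 0.41 (adjusted p = 0.0187), Fgf5 by 1.17 ± 0.20 (adjusted p = 0.00165), Pou3f1 by 0.82 ± 0.27 (adjusted p = 0.0393) and Zic2 by 0.67 ± 0.15 (adjusted p = 0.00799), against 18.9% of tested genes that rose. Etv5 dropped by 0.46 (adjusted p = 0.00133), against 12.1% that fell. Otx2 (−0.36) and Lef1 (−0.29) did not pass. The calls of Pou3f1 and Sall2 rested on single libraries: both were lost without Nons of day 5, Smarcc1.6 of day 4, Smarcc1.7 of day 4 or Smarcc1.7 of day 5, and that of Zic2 was lost with them without Smarcc1.7 of day 4, leaving between 2 and 3 members. That of Pou3f1 was also lost without Smarcc1.6 of day 5, Smarcc1.7 of day 6 or Smarcc1.7 of day 7, without day 6, with centred libraries and with no trend.

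From day 5 to day 7, a span that leaves out day 6, Lef1 dropped by 3.45 to 9.14% of its day 5 level (adjusted p = 7.15e-07), Etv5 dropped by 1.55 (adjusted p = 2.62e-07) and Otx2 dropped by 0.73 (adjusted p = 0.00469), against 30.7% of tested genes that fell. Fgf5 was 0.48 higher with an adjusted p of 0.0499, against 35.1% of tested genes that rose. That call was lost when any of 6 single libraries was left out (each Smarcc1.7 library, and Smarcc1.6 of days 5 and 7) and under the stricter filter, centring on the library median, no trend, voom and a model without group. Pou3f1 (−0.51 ± 0.27), Sall2 (−0.72 ± 0.41) and Zic2 (0.00 ± 0.15) did not pass. Pou3f1 and Sall2 both did without Nons of day 4, when 6 members and 67.6% of tested genes were called. Pou3f1 also did without Smarcc1.6 of day 7 or with centred libraries.

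Over the whole span, day 7 against day 4, Fgf5 was 1.64 ± 0.20 higher (adjusted p = 2.07e-05) and Zic2 0.67 ± 0.15 higher (adjusted p = 0.00217), against 40.7% of tested genes. Lef1 dropped by 3.74 to 7.47% (adjusted p = 1.14e-07), Etv5 dropped by 2.01 to 24.8% (adjusted p = 2.03e-08) and Otx2 dropped by 1.10 to 46.8% (adjusted p = 0.000266) of the day 4 level, against 31.7%. All 7 members passed without Nons of day 4, as did 69.2% of tested genes, and Sall2 also passed without Nons of day 7. The median log2 CPM of the tested genes itself went from 4.43 (Nons, day 4) to 4.67 (Nons and Smarcc1.7, day 7), and the median gene was 0.11 higher on day 7 than on day 4. With libraries centred on their medians it was −0.11, and the changes per day split into 3648 higher and 4606 lower genes instead of 4679 and 3435, those from day 5 to day 7 into 3692 and 5353 instead of 4711 and 4118, and those from day 4 to day 7 into 4328 and 5495 instead of 5459 and 4256. No member changed direction in the slope under this scaling.

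The second question was whether loss of Smarcc1 changed these levels. Averaged over the 4 days, Otx2 was the only member that differed between the knockdown and Nons libraries. It was 0.61 ± 0.14 log2 units higher (95% interval 0.31 to 0.91, 1.52-fold, adjusted p = 0.0167, limma with day as a factor), and higher in 6 of 8 same-day pairs. That is 1 of 7 members, against 11.6% of tested genes called in either direction and 6.88% called higher. The call was lost without Nons of day 5 (0.59, adjusted p = 0.0685) or Nons of day 6 (0.50, adjusted p = 0.0848). Leaving out the whole of day 5, the whole of day 6 or the day block also lost it. The adjusted p of Otx2 ran from 0.000394 to 0.126 over the libraries and days left out. The other members differed by −0.21 ± 0.15 (Fgf5), 0.01 ± 0.19 (Pou3f1), 0.16 ± 0.29 (Sall2), 0.15 ± 0.11 (Zic2), 0.01 ± 0.15 (Lef1) and 0.15 ± 0.06 (Etv5). Their intervals reach furthest for Sall2, from −0.48 to 0.80, so these data do not bound its mean difference closely. That of Etv5, from 0.01 to 0.28, did not reach 0, but its adjusted p was 0.151 (limma).

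Taken separately, neither hairpin gave a call among the members. Smarcc1.6 called 9.30% of tested genes and put Otx2 0.54 ± 0.16 above Nons (adjusted p = 0.0600), and Smarcc1.7 called 2.45% and put it 0.68 ± 0.16 above (adjusted p = 0.0513). Etv5 was about as close to a call with Smarcc1.6 (0.21 ± 0.06, adjusted p = 0.0646). In that comparison Etv5 passed without Nons of day 7 and without day 7. Between the hairpins 0 members and 0 genes passed (0% of 13406), and 530 genes had an unadjusted p under 0.05. The difference between hairpins was smallest for Zic2 (−0.08, 95% interval −0.37 to 0.21) and largest for Fgf5 (−0.25, −0.62 to 0.12). Both comparisons with Nons use the same 4 Nons libraries.

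**Figure D2:**
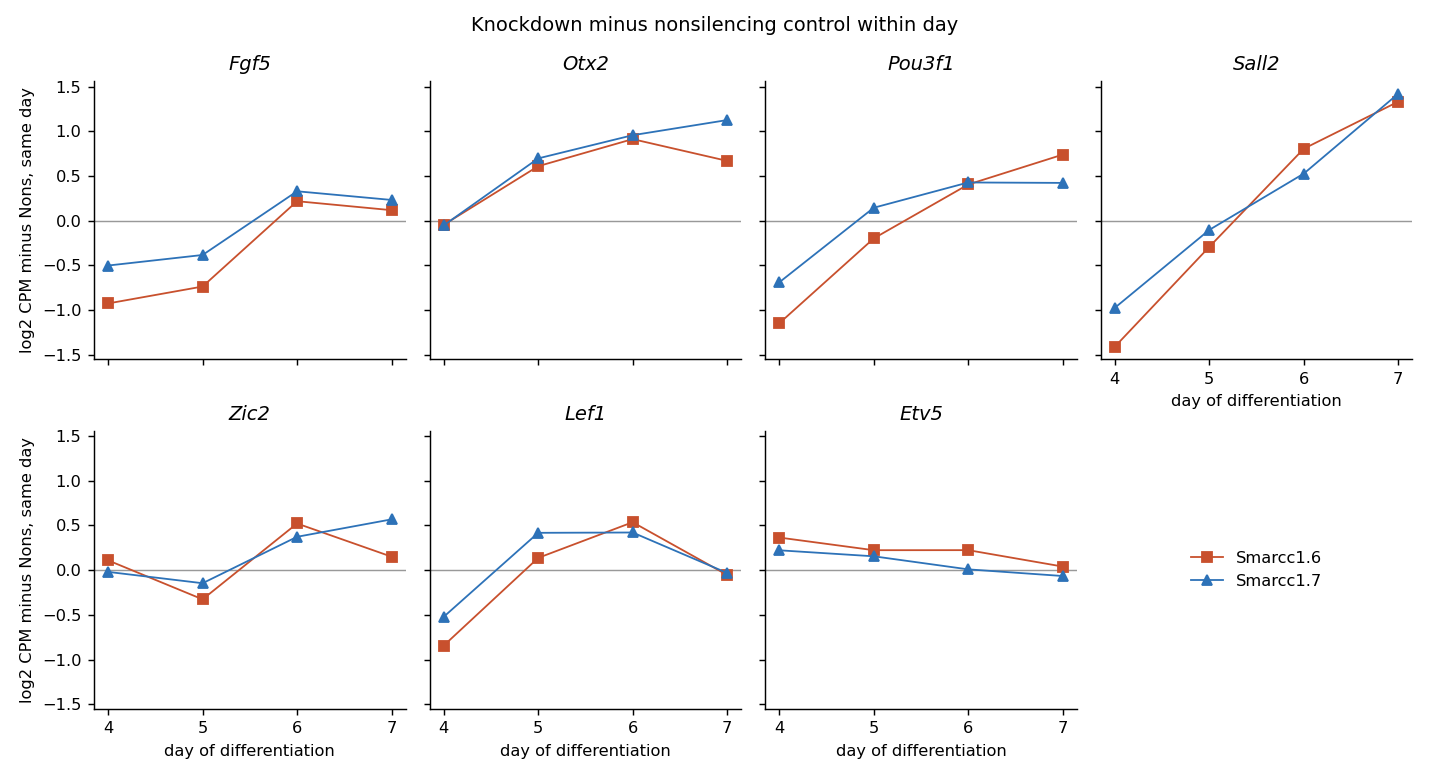
Log2 CPM of each hairpin library minus the Nons library of the same day (vertical axis, 0 marks no difference) against day, for Smarcc1.6 and Smarcc1.7. Fgf5, Pou3f1, Lef1 and Sall2 are below 0 on day 4 with both hairpins. All 7 genes are above 0 on day 6, Etv5 with Smarcc1.7 by only 0.01. Sall2 moves furthest, from −1.41 and −0.97 on day 4 to 1.33 and 1.42 on day 7.

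The average over days hid a course within each pair. On day 4 the median member was 0.84 log2 units lower than Nons with Smarcc1.6 (−0.84) and 0.50 lower with Smarcc1.7 (−0.50), and on day 6 it was 0.52 and 0.42 higher, while the median tested gene stayed between −0.04 and 0.02. On day 6 all 7 members were above Nons with both hairpins, where 47.1% (Smarcc1.6) and 45.4% (Smarcc1.7) of tested genes were. The smallest of these differences, that of Etv5 with Smarcc1.7, was only 0.01. Both hairpins are set against the same Nons library of that day, so their counts are not separate. The day 6 libraries share the lower share of reads in genes given above, in all 3 groups alike.

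Sall2 moved most. It was 1.41 and 0.97 below Nons on day 4 (differences of −1.41 and −0.97), −0.29 and −0.10 on day 5, 0.80 and 0.53 on day 6, and 1.33 and 1.42 on day 7, for Smarcc1.6 and Smarcc1.7 in turn. Pou3f1 went from −1.15 and −0.69 through −0.20 and 0.14 and then 0.40 and 0.43 to 0.74 and 0.42. Fgf5 went from −0.93 and −0.50 through −0.74 and −0.38 to 0.22 and 0.33 on day 6 and 0.12 and 0.23 on day 7. These 3 genes were below Nons with both hairpins on day 4 and above it with both on days 6 and 7.

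Otx2 differed in timing from them. Its differences were −0.05 and −0.05 on day 4, 0.61 and 0.70 on day 5, 0.91 and 0.96 on day 6 and 0.67 and 1.13 on day 7. Lef1 was below Nons on day 4 (−0.84 and −0.52), above it on day 5 (0.14 and 0.42) and day 6 (0.54 and 0.42), and level on day 7 (−0.05 and −0.03). Zic2 differed by 0.11 and −0.02 on day 4 and by −0.33 and −0.15 on day 5, and was above Nons on day 6 (0.52 and 0.37) and day 7 (0.15 and 0.57). Etv5 alone began above Nons with both hairpins, by 0.36 and 0.22 on day 4, and closed to 0.04 and −0.07 by day 7.

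Whether these courses differ was tested as the product of knockdown and day. With day as a number in the model, 0 members and 0 genes (0% of 13406) passed, and 745 genes, Otx2 among them, had an unadjusted p under 0.05. The limma adjusted p of Otx2 was 0.894. That model forces each course to a straight line, and the curved courses above stay in its residual. A fit with day as a factor, chosen after the data were seen, kept the same estimates. In it, Sall2 gained 0.86 ± 0.08 per day on Nons (95% interval 0.68 to 1.03, adjusted p = 0.000568) and Pou3f1 0.49 ± 0.10 (0.28 to 0.70, adjusted p = 0.0201), 2 of 7 members, against 2.43% of tested genes called higher and 1.32% called lower. Fgf5 (0.35 ± 0.09, adjusted p = 0.0597) and Otx2 (0.31 ± 0.08, adjusted p = 0.0587) did not pass, nor did Lef1 (0.21 ± 0.12), Zic2 (0.16 ± 0.09) or Etv5 (−0.10 ± 0.05). Both hairpins are set against the same 4 Nons libraries, so a Nons library moves both differences at once.

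Sall2 passed whichever library or day was left out, with 0.79 to 0.93 per day. Pou3f1 did not without Nons of day 4 (0.30, adjusted p = 0.307), without day 4 (adjusted p = 0.247) or without day 6 (0.47, adjusted p = 0.0578), nor with no trend (adjusted p = 0.0651) or with Smarcc1.7 and Nons alone (0.36, adjusted p = 0.127). Lef1 turned to −0.16 without Nons of day 4 and passed without Nons of day 7 (0.58, adjusted p = 0.0296), as did Otx2 (0.49, adjusted p = 0.0349). Otx2 also passed without Smarcc1.6 of day 7 (0.39, adjusted p = 0.00624), and Fgf5 without Smarcc1.7 of day 4 (0.41, adjusted p = 0.0407). In a further fit chosen after the data were seen, which set the knockdown difference on days 6 and 7 against that on days 4 and 5, Sall2 (1.71 ± 0.31, adjusted p = 0.0231) and Fgf5 (0.86 ± 0.18, adjusted p = 0.0364) passed, and Pou3f1 (0.97 ± 0.27, adjusted p = 0.0894) did not.

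**Figure D3:**
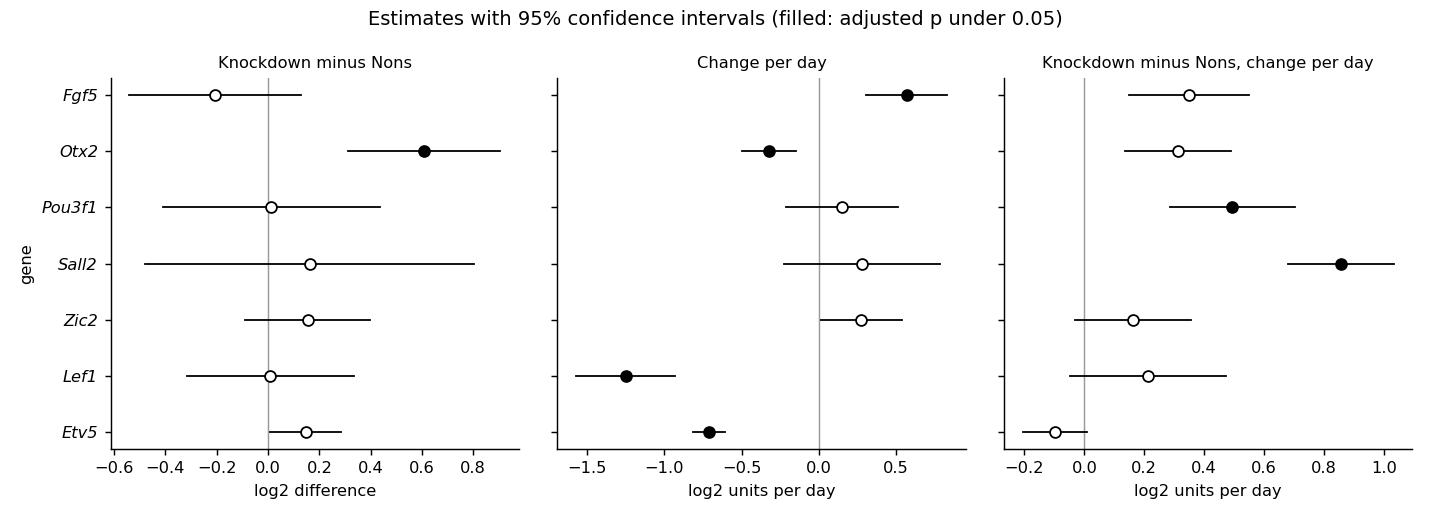
Estimate (point) and 95% confidence interval (line) of each gene for knockdown minus Nons over days 4 to 7, for the change per day in all groups, and for the change per day of knockdown minus Nons with day as a factor, all in log2 units, filled where the adjusted p is under 0.05. Otx2 is filled in the left panel, Fgf5, Otx2, Lef1 and Etv5 in the middle, and Pou3f1 and Sall2 on the right.

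Markers of other cell states moved with the groups and days. The 11 naive markers summed to 4309 CPM at Day0, to 552, 310, 251 and 358 in Nons on days 4 to 7, to 1589, 708, 366 and 385 with Smarcc1.6 and to 1204, 479, 282 and 377 with Smarcc1.7. On day 4, where Fgf5, Pou3f1, Lef1 and Sall2 were below Nons, that sum was 2.88 and 2.18 times that of Nons, and on day 7 it was 1.08 and 1.05 times. Of the 11, 8 were higher in knockdown and 0 lower, against 6.88% and 4.77% of tested genes. Nanog (0.74), Klf5 (−0.37) and Tbx3 (−0.26) did not pass. The median difference was 1.00 against −0.01 over all tested genes. The 4 largest were the nuclear receptor gene Nr0b1 (1.79, adjusted p = 0.0488), the germ cell and naive regulator Prdm14 (1.62, adjusted p = 0.00193), the Krüppel-like factor Klf4 (1.40, adjusted p = 0.0128) and the zinc finger gene Zfp42 (Rex1; 1.11, adjusted p = 0.00250). The part of these cells in the members' differences was not tested.

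The primitive streak and mesoderm markers summed to between 34.5 and 337 CPM in Nons, 21.9 and 69.4 with Smarcc1.6 and 23.4 and 50.7 with Smarcc1.7. On day 7 they stood at 0.206 and 0.0990 times Nons. Of 3 tested of 7, T (brachyury; −2.50, adjusted p = 0.0341) and Eomes (−0.92, adjusted p = 0.0440) were lower, against 4.77% of tested genes. Msgn1 had 0 reads in 8 of the 13 libraries. Neuroectoderm markers summed to 43.9 to 259 CPM in Nons, 33.3 to 262 with Smarcc1.6 and 36.1 to 200 with Smarcc1.7. The sum was 0.758 and 0.823 times Nons on day 4, 0.517 and 0.583 times on day 5, 0.694 and 0.756 times on day 6 and 1.57 and 1.20 times on day 7. Of 3 tested of 7, Sox1, a neural plate factor, was higher (2.07, adjusted p = 0.0478), Pax6 (0.21, adjusted p = 0.437) and the intermediate filament gene Nes (−0.41, adjusted p = 0.154) did not pass, and Hes5 had 0 reads in some libraries. Endoderm markers stayed at 24.5 CPM or less in every library, with Ttr at 0 reads in most. Of 3 tested of 7, Sox17 was lower (−0.88, adjusted p = 0.0369, limma), against 4.77% of tested genes. Gata4 (−0.36) and Gata6 (0.29) did not pass. Trophoblast markers rose with day in all groups, to 3553, 3228 and 2756 CPM on day 7 (Nons, Smarcc1.6 and Smarcc1.7). Of 6 tested of 7, Krt8 was lower in knockdown (−0.50, adjusted p = 0.0375, limma), against 4.77% of tested genes. The other 5 did not pass, and the 6 ran from −0.50 to 0.37. The part of any of these in the members' course was not tested.

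**Figure D4:**
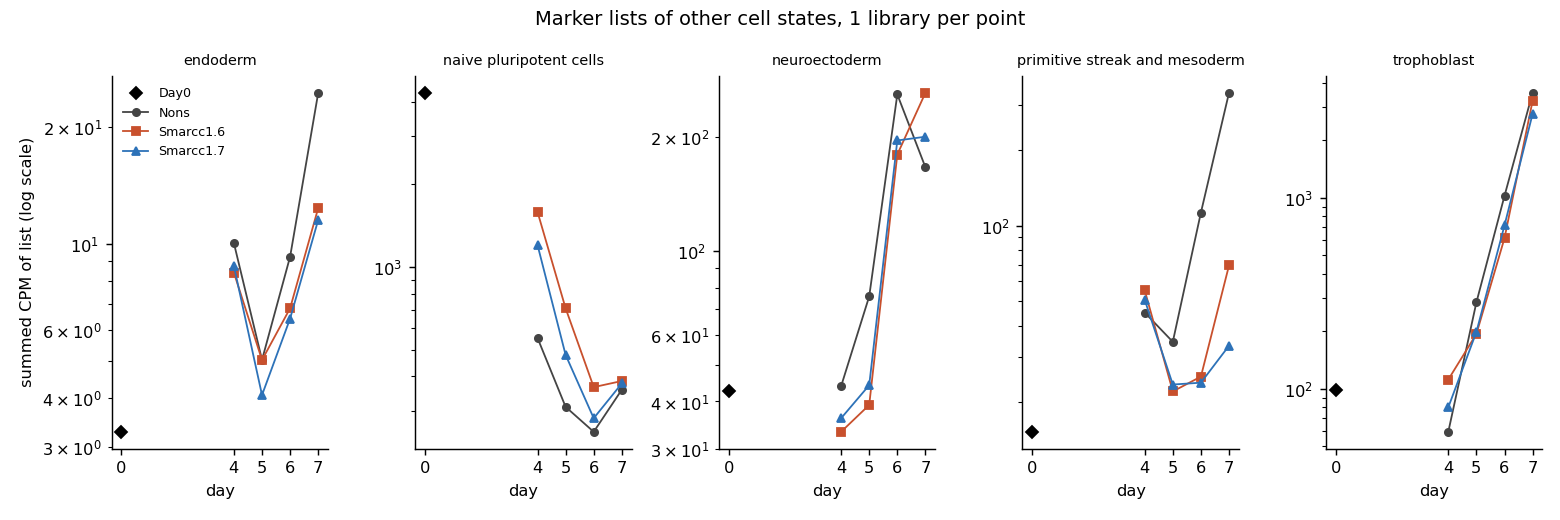
Summed CPM of 5 marker lists (vertical axis, log scale, own range per panel) against day, with 1 library per point, for Day0, Nons, Smarcc1.6 and Smarcc1.7. Naive markers are higher with both hairpins than in Nons on every day, by 2.88 and 2.18 times on day 4 and 1.08 and 1.05 times on day 7, and streak and mesoderm markers are lower from day 5 on.

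Other genes of these states and of the members' pathways were read as 4 lists. Of 16 other formative and primed genes, all tested, 2 were higher with knockdown, 1 was lower and 13 did not pass, with a median of 0.08, against 11.6% of tested genes called in either direction. The de novo DNA methyltransferase Dnmt3a (0.69, adjusted p = 0.0344) and the bHLH factor Tcf15 (1.00, adjusted p = 0.0299) were higher, and the N-cadherin gene Cdh2 (−1.01, adjusted p = 0.0324) lower. By the slope over days, 2 of the 16 rose and 7 fell, against 34.9% and 25.6% of tested genes. With day as a factor in the product of knockdown and day, 5 rose relative to Nons, Tcf15, Sox3, Utf1, Tead2 and Sox11. Nodal was among the 2 that fell. Of all tested genes 2.43% rose in this way and 1.32% fell.

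Of 18 paralogues of the members, 13 were tested (Otx1, Pou3f2, Pou3f3, Zic1 and Zic4 were too low), and 1 was higher, 2 lower and 10 without a call. Over all tested genes 6.88% were called higher and 4.77% lower, shares that also apply to the ERK and Wnt lists below. Fgf4, an FGF of the naive epiblast, was higher (1.35, adjusted p = 0.00565), Fgf8, an FGF of the primitive streak, lower (−1.88, adjusted p = 0.00186) and Sall4 lower by little (−0.23, adjusted p = 0.0411). Fgf4 and Fgf8 thus lay on opposite sides of Nons while Fgf5 crossed it. Of 12 ERK target and feedback genes, 0 were higher and 2 lower, the phosphatase gene Dusp4 (−0.58, adjusted p = 0.00892) and Spred1 (−0.33, adjusted p = 0.0470), and the median was 0.04. Of 10 Wnt target genes, 8 tested, 0 were higher and 2 lower, T and Sp5 (−2.14, adjusted p = 0.0375), with a median of −0.17. For comparison Etv5 differed by 0.15 and Lef1 by 0.01, neither past the test.

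The genes whose log2 CPM ran most closely with each member over the 12 libraries are given as a description. Points of 1 day share a collection time and points of 1 group a hairpin. For Fgf5 they were Rnf122 (Pearson r = 0.989) and Homez (0.987), for Otx2 Rad51c (0.950), for Pou3f1 Pcdh1 (0.969) and Gm1564 (0.961) and for Sall2 Pcdh1 (0.993) and Usp44 (0.978). For Zic2 they were Gnb1 (0.969) and Seh1l (0.960), for Lef1 Coch (0.991) and Mcm4 (0.991) and for Etv5 Cyp2b23 (0.990) and Rfx7 (0.988). Pcdh1, a protocadherin gene, was the closest to both Pou3f1 and Sall2, which ran with each other at r = 0.954. Among the members Lef1 and Etv5 ran together at 0.910 and Fgf5 and Zic2 at 0.856, while Fgf5 and Etv5 ran opposite at −0.848. Otx2 ran with Pou3f1 at only 0.196.

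Annotated neighbours limit some of these values. Antisense genes overlap 13.7% of the exon bases of Lef1 (Gm43352), 8.57% of those of Pou3f1 (Gm2164) and 3.65% of those of Otx2 (Otx2os1), and Gm49154 overlaps 3.98% of those of Otx2 on the same strand. Whether counting used strand is not given in the sources used here, so reads of these neighbours cannot be told apart from those of the 3 members.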

How the data were processed

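A total of 13 TruSeq RNA-seq libraries of female FVB/NJ x CAST/EiJ mESCs were analysed. The authors trimmed paired-end reads with trim_galore, aligned them with tophat or hisat2 (TopHat2 2.0.12 in the submitters' processing notes) to mm10 with strain SNPs masked, counted reads per gene in Seqmonk and deposited log2 values of CPM, reads per gene scaled to a common number of mapped reads. The annotation release and strand setting are not given in the sources used here. The deposited values fell on steps of whole reads (100% of low values within a tolerance of 0.1 reads), and 0 reads were written as 0.9. All columns of values were used.

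Groups and days came from the sample titles. Models were fitted over 13406 genes with limma 3.58.1 (lmFit, eBayes with trend) in R 4.3.3, on the 12 libraries of days 4 to 7, with Benjamini-Hochberg adjustment over all genes and a threshold of 0.05. Day0 entered no test. The fits were also run on simulated counts with planted changes. Those counts were drawn independently for each library, with a spread between libraries that was set and not measured between cultures. They therefore give no support to the p-values. Exon lengths, overlaps and target sites came from GENCODE M21, promoters from RefSeq. Python 3.11.15, pandas 2.3.3, scipy 1.17.1 and matplotlib 3.10.9 were used. Intervals cover counting error only where they are named as counting intervals.

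The members and lists were chosen with earlier results of these data known. The named genes were the 7 members, Smarcc1, the 2 genes most correlated with each member, and from each list at most the 4 genes with the largest knockdown difference among those with an adjusted p under 0.05. Members of the lists that are named for the product of knockdown and day were chosen after their values were seen. Alternatives were the filter, 1 added to the CPM, median centring, no trend, voom on recovered reads, no day block and leaving out each library and each day. A few genes that these rules name are not reported here.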

Additional observations from a re-analysis of the deposited data

Results flagged for a closer look

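Within a group the 4 libraries of days 4 to 7 were searched for a value far from the other 3, in 35 sets. The Nons library of day 4 stood apart for Fgf5, at a log2 CPM of 5.42 against 6.47 to 6.67 on the later days. It was the only one of the 35, and chance gives about 1 in 20. Day 4 was also the lowest day of Fgf5 with both hairpins.

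The difference between knockdown and Nons changed with day for Sall2, by 0.86 log2 units per day, and for Pou3f1, by 0.49 per day, in the fit with day as a factor. Between days 4 and 5 and days 6 and 7 it changed by 1.71 for Sall2 and by 0.86 for Fgf5. These tests were chosen after the data were seen, and the fit with day as a number called none of the members.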

How the results depend on the processing

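Of 722 results under an alternative setting, 27 were weaker, 33 stronger and 24 of the other sign. The remaining 638 kept their direction and side of the threshold or, for a count of members called, stayed within 1.5 times the reported count, so single calls could still change. The changed signs belonged to Lef1, Pou3f1 and Sall2, in results that had not passed the test. For knockdown minus Nons, voom on recovered reads gave −0.073 for Lef1, and with a library or day left out Lef1 ran from −0.15 to 0.24, Pou3f1 from −0.18 to 0.32 and Sall2 from −0.24 to 0.61. The change per day ran from −0.25 to 0.70 for Pou3f1 and from −0.36 to 0.98 for Sall2, and the change of knockdown minus Nons per day from −0.16 to 0.58 for Lef1.

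The count of members called for knockdown against Nons was 1, and 0 without the day block (no replicate block, Otx2 adjusted p = 1.00) or, at the lowest, with a library or day left out (0 to 1). For Smarcc1.6 and for Smarcc1.7 alone it was 0, and 1 with no filter for each and 1 with log2 of CPM plus 1 for Smarcc1.7, and 0 to 1 with a library or day left out. The member called with a library or day left out was Otx2 or Etv5 for Smarcc1.6 and Otx2 for Smarcc1.7. For the change per day it was 4, and 3 to 6 with a library or day left out, and for day 7 against day 4 it was 5, and 5 to 7. For day 5 against day 4 it was 5 (against 31.0% of tested genes), and 2 to 5 with a library or day left out. For day 7 against day 5 it was 4 (against 65.9% of tested genes), and 2 with group left out of the model. For the product of knockdown and day it was 0 with day as a number, 2 with day as a factor and 2 for days 6 and 7 against days 4 and 5. With day as a factor it was 4 with no filter, 4 with voom, 1 with no trend, 1 with Smarcc1.7 and Nons alone, and 1 to 4 with a library or day left out. The cause was not tested. Leaving out libraries uses fewer samples. Low depth did not limit the members from day 4 on, since the lowest of their values rested on 234 reads (Lef1, Nons, day 7), but the single Day0 read of Fgf5 leaves its ratio to Day0 uncertain.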
